A study of Solanum lycopersicum with 12 samples.

Results

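In tomato seedlings, 73 array probes were lower 24 h after MBI600 CFCF and 24 h after flg22 than in the control of that time. They were chosen by these values. In the deposited log2 table, each had a mean difference from the control of -1 or less under both treatments at 24 h, with all 4 treated arrays below both control arrays, a difference above -1 under flg22 at 6 h, and a signal well above background on both control arrays at 24 h. The 73 probes were 0.167% of the 43603 probes measured, and 0.226% of the 32358 that were well above background on both control arrays at 24 h. They stood for 66 sequence names, and 21 of them matched 15 genes of the reference table. The other 52 probes, of 51 names, matched no gene and are described by counts and ranges, apart from the pair with the most negative mean difference.

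Each of the 12 arrays held RNA of whole seedlings, 15 days old, from a pool of 2 seedlings, with 2 biological replicates for each of 3 treatments at 6 and 24 h. MBI600 CFCF, a filtrate of Bacillus amyloliquefaciens MBI600 cultures freed of cells, made up 20% of the volume, and flg22, which served as the positive control, was used at 1 µM. By the labels the control seedlings stood in water, and by the methods in a mix of LB and MS. For flg22 neither source mentions LB, so a difference in medium between it and the control cannot be told apart from the peptide. If the control was water, the culture medium in MBI600 CFCF likewise cannot be told apart from what the bacteria released. At 24 h the control and flg22 were each read on slides 1 and 2 and MBI600 CFCF on slides 1 and 3, a slide holding 4 arrays. Between 69.8% and 81.7% of the 43803 spots of an array were well above background and 0 were saturated, and precision is limited by having only 2 arrays in a group. All levels are log2 of the green (Cy3) intensity after background correction and quantile normalization, and a difference of -1 is a level at 50% of the control.

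Flg22 is a peptide of bacterial flagellin that plants perceive through the receptor kinase FLS2, which starts pattern-triggered immunity. Plants that mount this response are known to lower many genes of growth, among them genes for cell wall loosening and for water and ion transport. A culture filtrate of a Bacillus strain can hold flagellin, lipopeptides and other compounds that plants perceive.

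At 24 h the lowered probes had a median difference from the control of -1.24 under MBI600 CFCF and of -1.37 under flg22, which are median levels 2.36-fold and 2.59-fold lower. The differences ran from -2.61 to -1.001 under MBI600 CFCF and from -3.28 to -1.003 under flg22, and 3 and 9 probes respectively were at -2 or less. The flg22 difference was the more negative for 45 probes and the MBI600 CFCF difference for 28. These contrasts chose the probes and share the control arrays, so they are a description without a test. Over all probes, 0.566% had a difference of -1 or less under MBI600 CFCF and 0.537% under flg22, and 9.5% had all 4 treated arrays below both control arrays. At the threshold, the members just inside had a weaker difference of -1.001 (no gene matched) and -1.002 (LOC101261588), and the probes just outside had -0.999 and -0.996.

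**Figure D1:**
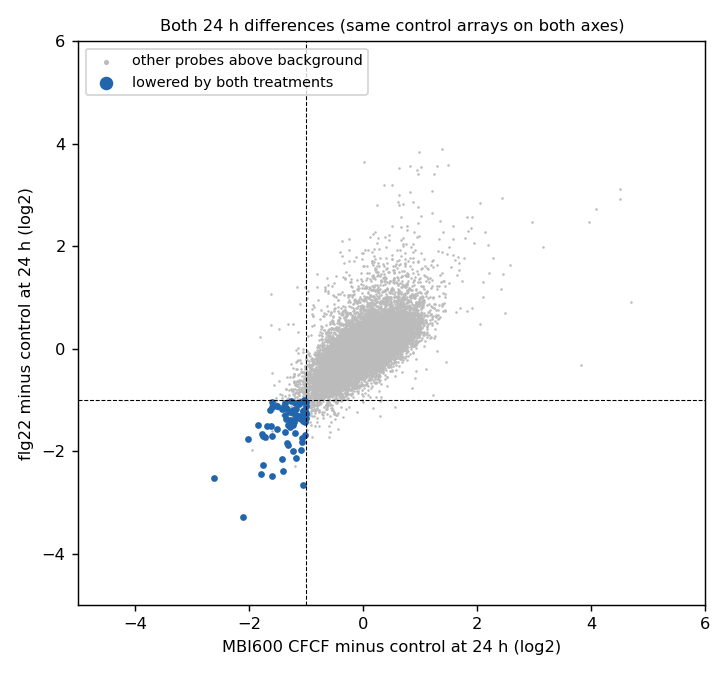
The difference from the control at 24 h under MBI600 CFCF (horizontal, log2) and under flg22 (vertical, log2) for the 32358 probes well above background on both control arrays, with the 73 lowered probes in blue. Dashed lines mark -1, the blue points lie below both lines by the rule, and both axes share the same control arrays.

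The control stood high at 24 h in most of these probes, and this bears on the word lowered. The median change from 6 to 24 h was 0.79 in the control, -0.28 under MBI600 CFCF and -0.46 under flg22. The control was higher at 24 h than at 6 h for 66 of the 73 probes, by at least 1 for 26, and both control arrays at 24 h lay above both at 6 h for 49 probes (67.1%, against 16.1% of all probes). Against the control at 6 h, the median difference of the 24 h arrays was -0.50 under MBI600 CFCF and -0.56 under flg22, and all 4 treated arrays at 24 h lay below both control arrays at 6 h for 30 of the 73 probes (5.69% of the probes above background). The control at 24 h was the highest of the 6 groups for 62 probes and the control at 6 h for 7. The lowest group was flg22 at 24 h for 30 probes and MBI600 CFCF at 24 h for 17, while in 13 probes MBI600 CFCF at 6 h was lowest and in 11 flg22 at 6 h. Since the rule required a high control at 24 h, these changes with time are a description without a test.

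**Figure D2:**
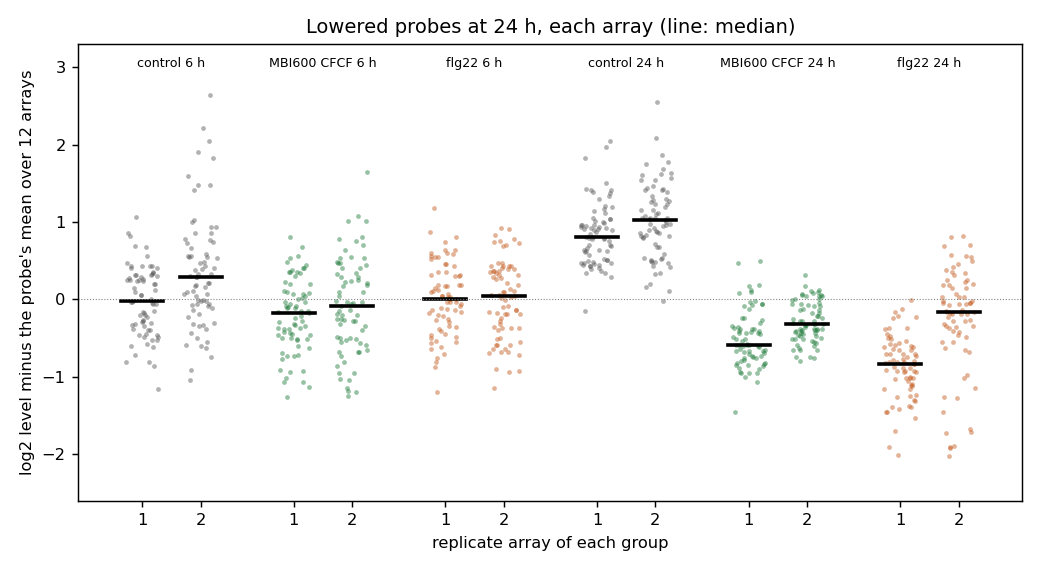
The level of each of the 73 probes minus its own mean over 12 arrays (log2) on each array, with a black line at the median of the array. The medians of the control arrays at 24 h were 0.81 and 1.03, those of all 4 treated arrays at 24 h lay below 0, and those of the 6 h arrays ranged from -0.17 to 0.28.

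The treated arrays at 24 h were not alike. The median deviation from the mean of each probe was -0.83 on flg22 replicate 1 and -0.16 on flg22 replicate 2, and it was -0.58 and -0.32 on the MBI600 CFCF arrays. Replicate 2 of flg22 was above replicate 1 for 56 of the 73 probes, and the median gap between these replicates was 0.67 in the lowered probes and 0.36 in all probes above background. Within slide 1, the median difference from the control was -1.34 under MBI600 CFCF and -1.65 under flg22, and within slide 2 it was -1.14 under flg22. All 73 probes were below the control in each of these 3 within-slide comparisons, which the rule fixed by the order it required. At -1 or less were 51, 69 and 45 of them, in probes chosen by the same arrays. MBI600 CFCF replicate 2 had no control array of 24 h on its slide.

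Leaving out a 24 h array loosens the order that the rule required, and for a control also the background condition. The group mean then rests on 1 array. The number of probes that met the rule changed in both directions. It was 388 without control replicate 1 at 24 h, with 59 of the 73 among them, 177 without flg22 replicate 2 at 24 h, with 71 among them, and 40 without flg22 replicate 1 at 24 h, with 38 among them. Of the 73 probes, 71 were well above background on all 4 treated arrays at 24 h and 1 on some of them. The remaining probe, with no gene matched, was not well above background on any of the 4, so its level there has only a bound, the higher on each array of its own signal and the lowest signal of the probes above background. By that bound it was at least 3.41-fold lower under MBI600 CFCF and at least 3.17-fold lower under flg22. The mean level in the control at 24 h ran from 7.47 to 15.4 over the 73 probes, with a median of 9.88.

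Among the matched genes, ARF/XYL2 and LOC543515 are described here by a part in the cell wall. Others named below without a role may have one too. ARF/XYL2 is a bifunctional arabinofuranosidase and xylosidase, which trims sugars from cell wall polysaccharides. Its levels were 9.22 and 9.43 in the control at 24 h, 7.53 and 8.07 under MBI600 CFCF and 7.34 and 8.17 under flg22, and at 6 h they were 8.21 and 8.42 in the control, 8.27 and 8.58 under MBI600 CFCF and 8.15 and 8.83 under flg22. The 6 h arrays lay between the treated and the control arrays of 24 h, apart from flg22 replicate 1 at 6 h, which was just below flg22 replicate 2 at 24 h, and at 6 h the groups overlapped. The differences at 24 h were -1.52 under MBI600 CFCF and -1.57 under flg22. A further probe of this gene had -0.31 and -0.23, so the size of the difference depended on the probe.

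LOC543515, whose synonym LEXYL2 names a beta-xylosidase of the cell wall, was 9.79 and 10.54 in the control at 24 h, 8.76 and 8.86 under MBI600 CFCF and 7.97 and 9.61 under flg22. On the 6 h arrays it was 10.10 and 8.52 in the control, 10.10 and 10.50 under MBI600 CFCF and 9.43 and 8.91 under flg22. Its highest group was MBI600 CFCF at 6 h, where it was 1.00 above the control (SE 0.62, adjusted p = 0.949 by limma), a difference that did not pass the test. At 24 h the differences were -1.35 and -1.37. Of its 4 probes 1 was a member, and over the 4 the difference at 24 h ran from -1.35 to 0.22 under MBI600 CFCF and from -1.37 to -0.43 under flg22.

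The gene with the symbol ext1, which stood in the cell wall list through that symbol, was among the 10 probes with the most negative mean difference. The member probe read 9.60 and 8.42 in the control at 24 h, 7.41 and 7.81 under MBI600 CFCF and 6.998 and 6.24 under flg22. Here the flg22 arrays lay below the MBI600 CFCF arrays, and the levels under flg22 were 5.24-fold below the control against 2.64-fold under MBI600 CFCF. At 6 h it read 8.38 and 10.48 in the control, 8.71 and 7.75 under MBI600 CFCF and 8.61 and 8.70 under flg22, so the control arrays of 6 h spanned all treated arrays of that time apart from 1. All 3 probes of ext1 had all 4 treated arrays below both controls at 24 h, with differences as small as -0.50 and -0.54. Dif54 had the most similar pattern to it of 2092 genes compared (Pearson's r = 0.94 over 12 arrays), followed by APX7 (r = 0.84) and TPX2 (r = 0.84).

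Transport proteins were represented by TIP and NRAMP1. TIP, also named RB7, is a tonoplast intrinsic protein, a water channel of the vacuole membrane. Its levels were 11.00 and 11.63 in the control at 24 h, 9.35 and 9.60 under MBI600 CFCF and 9.36 and 10.28 under flg22, which are 3.58-fold and 2.82-fold lower. Its 6 h levels were 10.25 and 10.91 in the control, 9.86 and 10.05 under MBI600 CFCF and 10.42 and 10.27 under flg22. The control arrays at 6 h thus lay between those of the control at 24 h and the MBI600 CFCF arrays of 24 h, and MBI600 CFCF at 6 h was below the control on both arrays, with a difference of -0.62 (SE 0.34, adjusted p = 0.949 by limma). The genes with the most similar pattern were NITF (r = 0.93), gts1 (r = 0.91), itself among the lowered genes, and LOC101254320 (r = 0.90), each over 12 arrays.

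NRAMP1 is a metal ion transporter of the NRAMP family. It read 7.26 and 8.72 in the control at 24 h, 6.45 and 6.96 under MBI600 CFCF and 6.69 and 6.52 under flg22, and the gap between its control arrays was wider than the step from the lower of them to the treated arrays. At 6 h it read 6.34 and 6.84 in the control, 6.17 and 6.31 under MBI600 CFCF, where 1 of the arrays was not well above background, and 6.77 and 7.26 under flg22. The control was 1.41 higher at 24 h than at 6 h, and the treated arrays of 24 h stayed in the range of the 6 h arrays.

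LOC101248254 carries the synonym gast1, a gibberellin-stimulated transcript first described in tomato. It read 13.28 and 13.34 in the control at 24 h, 11.93 and 12.24 under MBI600 CFCF and 11.13 and 12.63 under flg22. The 6 h arrays read 12.78 and 12.71 in the control, 12.32 and 12.43 under MBI600 CFCF and 11.58 and 12.19 under flg22. Both treatments were thus below the control on every array at both times, by -0.37 under MBI600 CFCF and -0.86 under flg22 at 6 h and by -1.22 and -1.43 at 24 h. The MBI600 CFCF difference at 6 h had an SE of 0.42 and did not pass the test (adjusted p = 0.949 by limma).

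Dea1, a gene first described in tomato for its response to arachidonic acid, held 4 of the 73 probes. The one with the most negative mean difference read 11.63 and 11.76 in the control at 24 h, 9.80 and 10.34 under MBI600 CFCF and 9.34 and 11.03 under flg22. At 6 h it read 9.82 and 10.41 in the control, 9.28 and 10.18 under MBI600 CFCF and 9.95 and 9.07 under flg22. The control arrays of 24 h stood above the other 10 arrays, which overlapped one another. All 5 probes of Dea1 had this order at 24 h, with differences from -1.64 to -1.32 under MBI600 CFCF and from -1.51 to -0.96 under flg22, while the control was higher at 24 h than at 6 h by 1.11 to 1.58.

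The remaining matched genes are named without a role. The symbol gts1 held 2 probes, and the more negative one read 10.19 and 10.80 in the control at 24 h, 8.16 and 8.78 under MBI600 CFCF and 7.87 and 9.57 under flg22. Its 6 h arrays lay between 8.44 and 9.45, all below both control arrays of 24 h, so the differences of -2.03 and -1.77 stood beside a control that was 1.39 higher at 24 h than at 6 h. The pattern most like it was that of NITF (r = 0.98), then LOC101254320 (r = 0.95) and LOC101266661 (r = 0.94), each over 12 arrays. The arrays that these correlations join include the control arrays at 24 h that chose the members.

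LOC101253509 had the most negative MBI600 CFCF difference at 6 h of all members. It read 9.27 and 9.32 in the control at 6 h, 7.72 and 7.26 under MBI600 CFCF and 8.28 and 8.85 under flg22, so both treatments were below the control at that time. At 24 h it read 9.44 and 9.87 in the control, 8.38 and 8.07 under MBI600 CFCF and 7.53 and 7.48 under flg22. The MBI600 CFCF difference at 6 h was -1.80 (SE 0.24), with an unadjusted p of 6.44e-05 and an adjusted p of 0.861 by limma, which did not pass the threshold. The change from 6 to 24 h was 0.73 under MBI600 CFCF and -1.06 under flg22. The genes most like it were LOC101246584 (r = 0.87), fw2.2 (r = 0.82) and EXP5 (r = 0.82), each over 12 arrays.

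Dif54 followed ext1 in its levels. It read 9.91 and 9.20 in the control at 24 h, 8.26 and 8.79 under MBI600 CFCF and 8.43 and 7.30 under flg22, and at 6 h 8.85 and 10.92 in the control, 8.89 and 8.06 under MBI600 CFCF and 9.52 and 9.92 under flg22. Control replicate 2 at 6 h was its highest array, as it was for ext1. PDH differed by -1.07 under MBI600 CFCF and by -1.75 under flg22 at 24 h, and its probe was 1 of 5, of which 2 had all 4 treated arrays below both controls.

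GLO2 held 2 member probes of its 9, and 4 of the 9 had all 4 treated arrays below both controls. The more negative of them read 9.04 and 10.11 in the control at 24 h, 8.59 and 8.09 under MBI600 CFCF and 7.87 and 8.50 under flg22, with differences of -1.24 and -1.39. LOC101261588 held 2 member probes of its 4, and on the one nearest to the threshold it read 15.37 and 15.44 in the control at 24 h, 14.22 and 14.59 under MBI600 CFCF and 13.81 and 14.49 under flg22. Its 6 h arrays ran from 14.90 to 15.32, near the control of 24 h, so here the treated arrays of 24 h lay below all arrays of 6 h, with a change from 6 to 24 h of -0.86 under MBI600 CFCF and -1.04 under flg22. LOC101244233 differed by -1.61 and -1.03 at 24 h and PAP1 by -1.05 and -1.22, under MBI600 CFCF and flg22 respectively, and both stood higher in the control at 24 h than on both control arrays of 6 h.

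**Figure D3:**
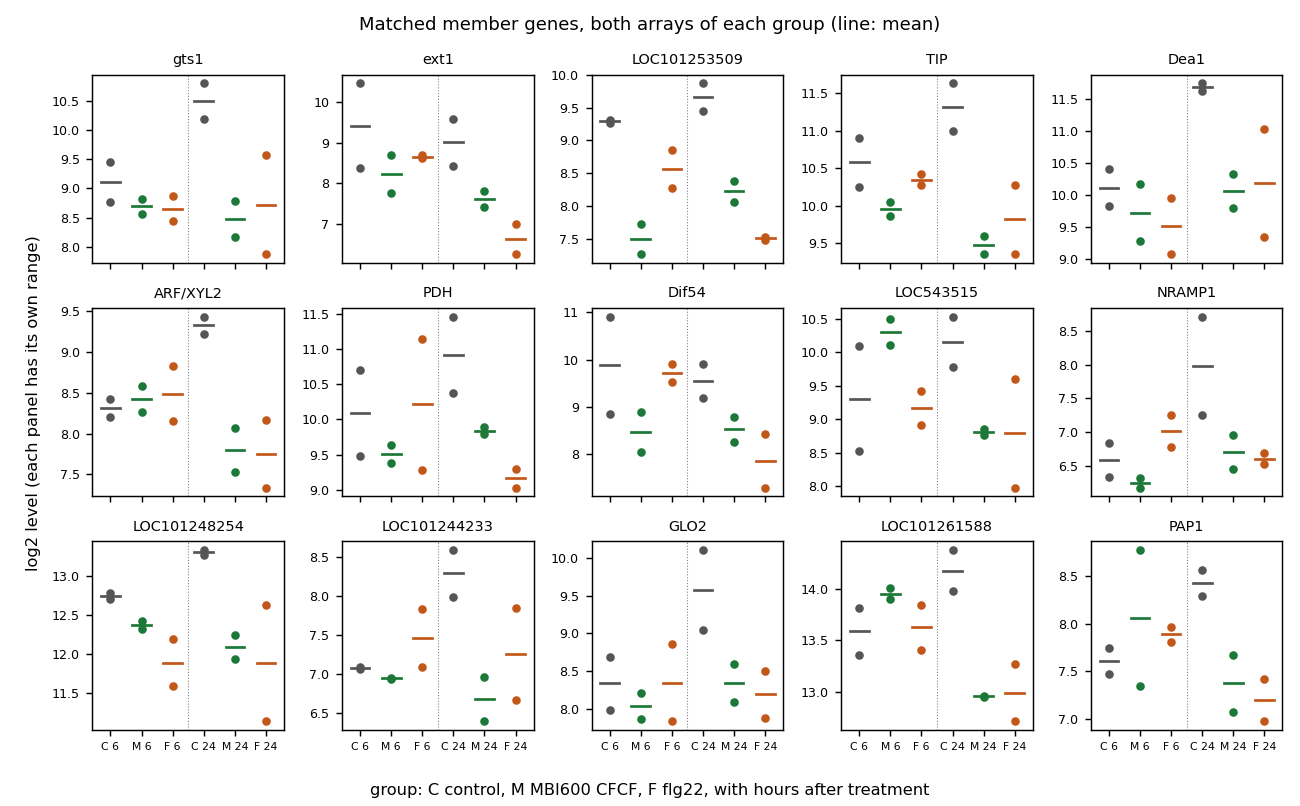
Levels (log2) of the 15 matched genes on both arrays of each group, with 1 member probe per gene (that with the most negative mean difference) and a line at the mean of each group. At 24 h both control points lie above all treated points in every panel, by the rule. The 6 h points of Dea1 and gts1 lie below the control points of 24 h, and those of ext1 and Dif54 reach above them.

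Probes with no gene matched made up 7 of the 10 with the most negative mean difference. Probe A_96_P160236 read 10.17 and 9.22 in the control at 24 h, 7.42 and 7.74 under MBI600 CFCF and 6.60 and 6.24 under flg22, which are 4.34-fold and 9.72-fold lower. The 6 h arrays read 8.45 and 9.72 in the control, 8.35 and 6.98 under MBI600 CFCF and 8.58 and 7.99 under flg22. The flg22 arrays at 24 h were its lowest of all 12. Probe A_96_P160506 read 9.59 and 10.17 in the control at 24 h, 7.02 and 7.50 under MBI600 CFCF and 7.39 and 7.31 under flg22, which are 6.12-fold and 5.78-fold lower. Its 6 h arrays ran from 6.67 to 8.004 in all groups, and the treated arrays of 24 h lay in that range, while the control was 2.50 higher at 24 h than at 6 h. The 5 other unmatched probes among the 10 differed by -1.79 to -1.07 under MBI600 CFCF and by -2.65 to -1.71 under flg22. Over all 52 unmatched members the median differences were -1.23 and -1.32, and over the 21 matched ones -1.39 and -1.39.

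The change of the control with time divided the members, in subsets drawn after their values had been seen and given without a test. In the 26 probes whose control was higher at 24 h by at least 1, among them Dea1, gts1, ARF/XYL2, NRAMP1, GLO2 and LOC101244233, the median change from 6 to 24 h was 0.03 under MBI600 CFCF and -0.03 under flg22. In the 40 probes whose control was higher by less than 1, among them TIP, LOC101248254, LOC101253509, LOC101261588, LOC543515, PAP1 and PDH, the medians were -0.48 and -0.75. In the 7 probes whose control was lower at 24 h, among them ext1 and Dif54, the median change was -0.35 under MBI600 CFCF and -1.86 under flg22. These 7 also had a median difference from the control of -1.17 under MBI600 CFCF at 6 h, and flg22 was the lower treatment at 24 h in all of them, by 0.12 to 1.58. They were picked through a high control at 6 h, by the arrays that also set the 6 h difference. In 1 of the 7 both MBI600 CFCF arrays of 6 h lay below both controls, and in 3 both MBI600 CFCF arrays of 24 h lay above both flg22 arrays.

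**Figure D4:**
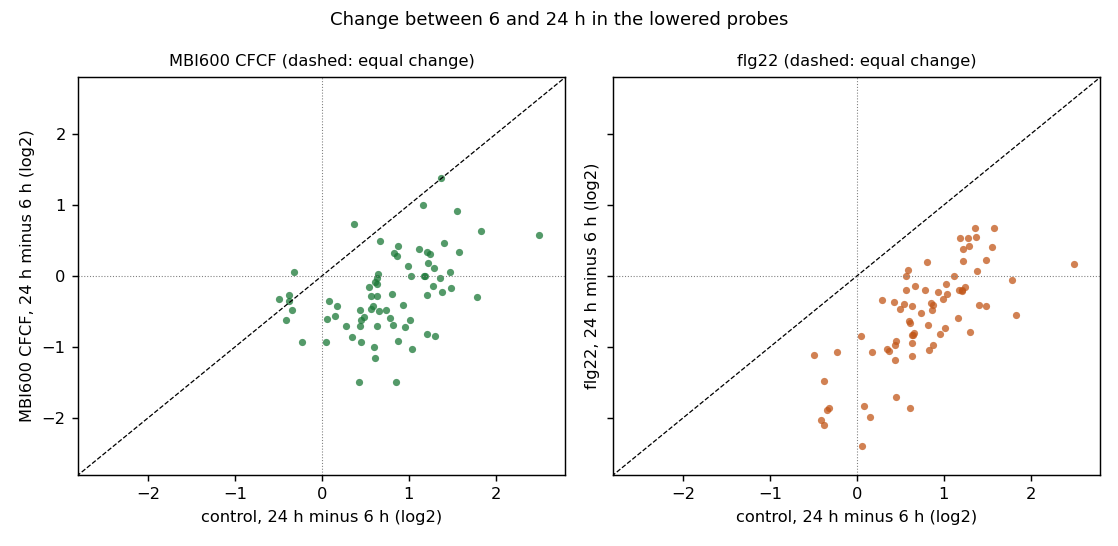
Change from 6 to 24 h (log2) in the 73 probes, in the control on the horizontal axes and under MBI600 CFCF (left) or flg22 (right) on the vertical axes, each point a difference of group means of 2 arrays. Most points lie right of 0 and below the dashed line of equal change, with medians of 0.79 in the control, -0.28 under MBI600 CFCF and -0.46 under flg22.

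The difference between MBI600 CFCF and the control at 6 h was not used to choose the probes, although its control arrays were those of the flg22 condition at 6 h. A probe was called where limma's adjusted p was under 0.1 and its level differed by 2 or more (log2). By this rule 0 of the 73 probes were called, as were 0.0% of all 43603 probes, of which 1118 had an unadjusted p under 0.05. The median difference in the 73 probes was -0.30, from -1.80 to 1.00, and 49 were below 0 (67.1%, against 49.6% of all probes). Both MBI600 CFCF arrays lay below both control arrays for 18 probes (24.7%, against 15.6% of all probes), and above both for 4 (5.48%, against 13.9%). A difference of -1 or less was found for 9 probes (12.3%, against 0.337% of all probes and 0.454% of those above background), and 5 of these were among the 7 whose control was lower at 24 h than at 6 h. The members also varied more at 6 h. The median gap between control replicates was 0.64 in the 73 probes and 0.30 in all probes above background, and between MBI600 CFCF replicates 0.46 and 0.30. How far this wider spread bears on the share at -1 or less was not tested. At an unadjusted p under 0.05, 8 probes were lower (11.0%, against 1.22%) and 0 were higher (against 1.34%), LOC101253509 being the matched gene among the 8.

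These 6 h values depended on the control arrays. The median was -0.52 without control replicate 1 at 6 h and -0.15 without control replicate 2, and the count of probes lower at an unadjusted p under 0.05 was 21 and 4 respectively, and 2 without MBI600 CFCF replicate 2. In these fits the array left alone in its group is assumed to vary like the other groups, whose spread limma pools. Within slide 2 the median was -0.20 and within slide 3 it was -0.28. Under flg22 at 6 h, where the rule set the limit of -1, the median was -0.23, from -0.98 to 0.71, with 46 of the 73 probes below 0. A further 11 probes met all 24 h conditions but had a flg22 difference of -1 or less at 6 h and are not among the 73.

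Both treatments were also compared directly at 24 h. The rule set no limit on this contrast, but it is the difference between the 2 differences from the control that chose the probes. Its values in the members are therefore not an independent test. By limma, 0 of the 73 probes were called, against 0.00688% of all probes. The median difference, MBI600 CFCF minus flg22, was 0.15, from -0.57 to 1.58, with 45 probes above 0 and 28 below (38.4%, against 48.8% of all probes). Both MBI600 CFCF arrays lay above both flg22 arrays for 13 probes (17.8%, against 15.2% of all probes) and below both for 1 (1.37%, against 16.3%). At an unadjusted p under 0.05, 4 probes were higher under MBI600 CFCF (5.48%, against 1.5% of all probes), LOC101253509 with 0.72 (SE 0.24) being the matched gene among them, and 0 were lower (against 1.94%). The sign of the median rested on 1 array, since it was -0.23 without flg22 replicate 1. The smallest adjusted p of a member was 0.998, and the median SE of 0.42 shows how wide each difference is with 2 arrays per group.

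**Figure D5:**
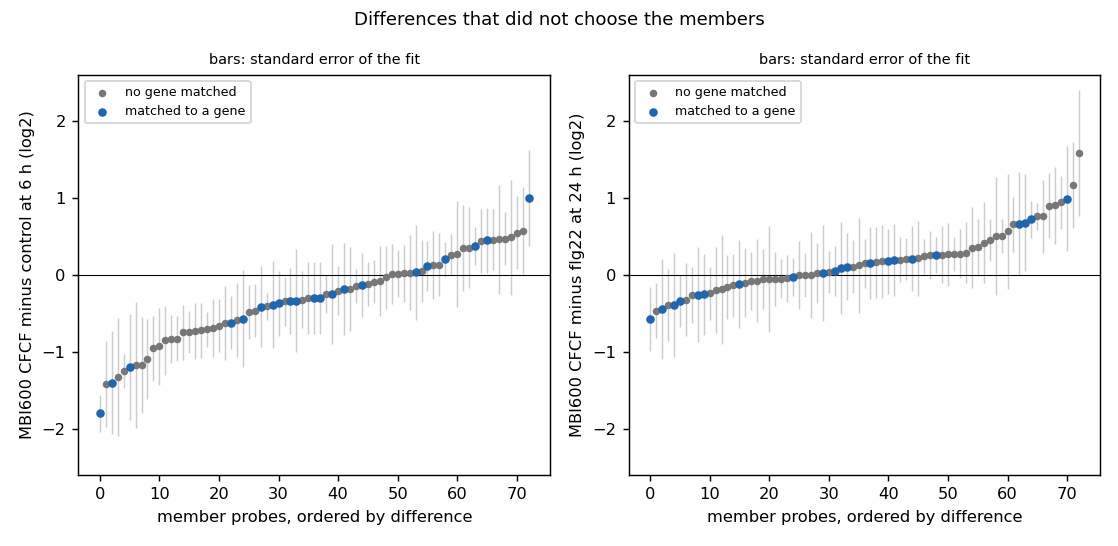
MBI600 CFCF minus control at 6 h (left, log2) and MBI600 CFCF minus flg22 at 24 h (right, log2) for the 73 probes in rising order, with bars for the standard error of the fit and blue points for probes matched to a gene. The rule set no limit on either, but the right one is the difference between both 24 h differences that chose the probes. At 6 h 49 points lie below 0, and at 24 h 45 lie above 0.

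Other probes of the same sequences or genes, which are not replicates since they read the same samples, numbered 38. For 37 of them both differences at 24 h were below 0, and 27 had all 4 treated arrays below both controls, against 11.0% of the probes above background. These probes share a sequence or gene with members chosen for that order, so the counts are a description. Their medians were -0.50 under MBI600 CFCF and -0.75 under flg22. None of the 38 reached -1 under both treatments, which the rule nearly fixes, since a probe at that limit would in most cases be a member. In the red (Cy5) channel, for which no source used here names the RNA, the 73 probes had median differences at 24 h of -0.11 under MBI600 CFCF and -0.14 under flg22. All 4 treated arrays were below both controls in that channel for 7 of the 73 probes (9.59%, against 4.14% of all probes). Over 12 arrays, pairs of members had a median Pearson's r of 0.57, and over the 6 arrays of 6 h one of 0.09, which is a description since the rule aligned the members at 24 h.

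Gene lists drawn up by symbol show where the matched genes stood among related ones, with 1 probe per gene. Of the 238 genes measured in these lists, 0 were called by limma in either comparison with the control at 24 h, in which 0.00459% of all probes were called under MBI600 CFCF and 0.00229% under flg22. At an unadjusted p under 0.05, 15 of these genes were lower (6.3%, against 3.33% of all probes) and 11 higher (4.62%, against 2.86%) under MBI600 CFCF, and 15 were lower (6.3%, against 3.2%) and 30 higher (12.6%, against 2.86%) under flg22. The sets are unlike, since each list gene was read by its brightest probe above background and all probes include dim ones, whose differences the offset shrinks. The list named cell wall loosening held expansins, xyloglucan endotransglucosylases, pectin methylesterases and endoglucanases, and also symbols of extensins. The gene ext1 entered it by symbol only, so a part of ext1 in loosening is not shown. Of its 33 measured genes, 9 had all 4 treated arrays below both controls and 4 above both. Of the measured probes with a matched gene, 9.58% and 10.4% did so. The 9 genes below both controls included ext1, the expansins EXPB2 (-1.60 under MBI600 CFCF and -1.61 under flg22) and EXP5 (-0.69 and -0.95), and XTH9 (-1.20 and -1.99). EXPB2 and XTH9 were no members, since their flg22 differences at 6 h were -1.82 and -1.17. Of 14 water channels, 2 were below (TIP and PIP2-7) and 1 above, with list medians of -0.54 under MBI600 CFCF and -0.39 under flg22.

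Of 11 gibberellin genes, 5 were below both controls on all 4 treated arrays and 1 above, GA2ox4 (1.00 under MBI600 CFCF and 1.30 under flg22). Among measured probes with a matched gene the shares were 9.58% and 10.4%, also for the lists that follow. The list medians were -0.20 and -0.09. Those below were LOC101248254, the gibberellin 3-oxidase GA3ox1 (-0.68 and -0.97), and the gibberellin 20-oxidases GA20OX1 (-0.64 and -0.51), 20ox-3 (-0.27 and -0.39) and 20ox-2 (-0.34 and -0.41). These oxidases are enzymes of gibberellin synthesis. Their probes were dim, with 6.63 to 7.39 in the control at 24 h, where the median of the probes above background was 8.01. Of 31 auxin genes, 5 were below and 2 above. Of 11 genes of mineral uptake, 2 were below, NRAMP1 and the ammonium transporter AMT1-2, and 2 above. Of 35 ethylene genes, 4 were below and 3 above, with no member among them. Photosynthesis (23 genes), cell division (19), jasmonate and wound response (18), salicylate and pathogenesis-related genes (29) and phenylpropanoid and pigment genes (14) had 0 genes below both controls on all 4 treated arrays and 4, 3, 5, 9 and 4 above, and they held no member.

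Whole seedlings hold shoot and root, and in such a sample fewer cells of a type and less RNA per cell cannot be told apart. All 17 green shoot markers were well above background on both control arrays at 24 h, and their median level at 24 h was 15.63 to 15.66 on the control arrays and 15.74 to 15.79 on the treated ones. The median of the differences gene by gene had the other sign, with -0.09 under MBI600 CFCF and -0.05 under flg22. Of 7 root markers, 5 were well above background there, and their median level was 10.85 to 10.89 on the control arrays, 10.09 to 10.73 under MBI600 CFCF and 10.12 to 10.37 under flg22. With 5 probes, such a median is close to the level of a single gene. Gene by gene, the median difference from the control at 24 h was -0.35 under MBI600 CFCF and -0.01 under flg22. NRAMP1 (-1.28 and -1.39), a member, and AMT1-2 (-0.35 and -0.62) were below both controls on all treated arrays, FRO1 was above both (0.41 and 0.77), and FER (-0.75 and -0.01) and PT1 (-0.31 and 0.18) lay on neither side with all 4. The part of root tissue in the values of the 73 probes was not tested.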

How the data were processed

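RNA of 12 samples in 6 groups was read on 2-colour Agilent arrays. Per the file headers, scans were processed with Agilent Feature Extraction 10.7.3.1, and the deposited files hold the median green intensity and background of each spot. The authors' deposited log2 values follow from normexp correction (offset 50) and quantile normalization, and were obtained again to within 5e-09. Membership used the deposited values. The same steps, with outlier spots set to missing (5 probe values), gave all other values. The offset shrinks the differences of dim probes. Spots of a probe were averaged to 43603 probes. A limma 3.58.1 fit (R 4.3.3) with a mean per group used all 12 arrays, and p was adjusted over all probes (Benjamini-Hochberg). A call needed an adjusted p under 0.1 and a log2 difference of 2 or more in size. The steps were tested on simulated data. No source says what the replicates share beyond their group, and p-values measure the spread between these pools.

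The members, the gene lists and the tests were chosen with earlier results of these data known. Named were all matched members, the 10 largest mean falls (at most 2 unmatched), probes at the threshold, any called member (0), and the 3 genes most similar to members described in depth. Names came from the RefSeq table of SLM_r2.1, used for names only, which matched 4884 probes to 2232 of 41476 genes. For gene lists, the brightest probe above background stood for a gene. Sequences and positions were not used here.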

Additional observations from a re-analysis of the deposited data

Results flagged for a closer look

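In 4 matched probes, both arrays of a treatment lay above both control arrays at 6 h and below both at 24 h, and the difference between the times was not tested. They were LOC543515 under MBI600 CFCF (1.00 at 6 h, -1.35 at 24 h), LOC101244233 under flg22 (0.39, -1.03), LOC101261588 under MBI600 CFCF (0.37, -1.23) and PAP1 under flg22 (0.28, -1.22). The lower MBI600 CFCF array of LOC543515 at 6 h (10.10) was level with the higher control array (10.10) to 2 decimals. The lower flg22 array of LOC101244233 at 6 h (7.09) was likewise level with the higher control array (7.09). The values at 24 h chose these probes. This order of arrays was found for 2 of the 21 matched probes under each treatment (9.52%). Its share of all probes is no fair comparison, since the rule placed every member below both controls at 24 h. The rule did not require the order at 6 h. Under MBI600 CFCF, both arrays lay above both controls at 6 h for 4 of the 73 members (5.48%), against 13.9% of all probes. Under flg22 this held for 5 of the 73 members, and no share of all probes was obtained for it.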

How the results depend on the processing

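The 73 probes that met the rule became 288 on the signal processed by the scanner software, set to the 75th percentile (65 of the 73 among them), 113 with a normexp offset of 16 (73), 13 at a log2 difference of -1.5 and 183 at -0.8. With outlier spots missing, an alternative added after seeing the data, 73 probes met it. Leaving out 1 array, which at 24 h loosens the order that the rule required, gave 40 to 388. The count was lowest without flg22 replicate 1 and highest without control replicate 1 at 24 h. For MBI600 CFCF minus control at 6 h, leaving out 1 array moved the median between -0.52 and -0.15 and the count lower at an unadjusted p under 0.05 between 2 and 21, and that count was 5 with the green to red ratio and 13 with a trended and robust empirical Bayes step. For MBI600 CFCF minus flg22 at 24 h, leaving out 1 array moved the median between -0.23 and 0.46 and the count higher at an unadjusted p under 0.05 between 2 (without flg22 replicate 1 or MBI600 CFCF replicate 2) and 11 (without flg22 replicate 2), and that count was 9 with the processed signal, 8 with an offset of 16, 7 with the slide as a block and 10 with a fit of only the groups compared. An array left alone in its group is assumed in these fits to vary like the other groups. No member was called under any alternative run, for either comparison. The change from 6 to 24 h under MBI600 CFCF was -0.11 when arrays were scaled to the 75th percentile and not by quantiles and -0.44 to -0.13 without 1 array, and under flg22 it was -0.90 to -0.22 without 1 array. The causes were not tested. Of 672 alternative values for named probes, 658 moved by less than the spread between replicates and 14 by more.

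The replicate numbers were not treated as pairs in the main fit. Deviations of same-numbered arrays correlated from -0.51 to 0.66, with 9 of 15 pairs of groups over 0.1. The highest value was between the control and flg22 at 24 h, whose replicates 1 and 2 were both read on slides 1 and 2. Whether the slide accounts for it was not tested. With the replicate number as a block, 9 members were lower at 6 h and 3 higher at 24 h at an unadjusted p under 0.05, against 8 and 4 without it. With 2 arrays per group a missing call does not show that a probe was unchanged. Most members have no gene name here, and the control medium is given in 2 ways, which limits what the values describe.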
